A study of Mus musculus with 6 samples.

Results

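The mitochondrial contact site and cristae organizing system (MICOS), the outer membrane protein it docks on, and the prohibitin family were examined in mouse platelet RNA. The 10 genes were chosen by symbol and not by a rule on their values, though with earlier results of these data known: Immt, Chchd3, Chchd6, Apoo, Apool, Samm50, Phb, Phb2, Stoml2 and Tmem11. All 10 were among the 14975 genes for which expression values were deposited. The libraries came from 2 groups with 3 libraries each. Control platelets came from mice that received normal bone marrow after irradiation, and pre-AML platelets came from sub-lethally irradiated mice 1 week after a secondary transplantation of GFP+ cells made leukemic by a retrovirus that carries the MLL-AF9 oncogene and GFP. Recipients were C57BL/6 or CD45.1 females of 8 to 12 weeks. In the submitters' labels the groups are called WT and AML on a C57BL/6 background. Their design text mentions 2 replicates and pools of 3 to 4 mice, whereas the methods state 3 mice that were independent. No source ties a library to its mice, so the p-values measure the spread between these libraries.

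Cristae are the folds of the inner mitochondrial membrane that hold the respiratory chain. MICOS sits at the narrow necks where cristae join the inner boundary membrane, keeps these junctions open and ties them to the outer membrane through SAMM50, the channel that inserts barrel-shaped proteins. Prohibitins form ring-shaped scaffolds in the inner membrane that organize lipids and proteases and protect the fusion protein OPA1 from cleavage. Platelets carry a small number of mitochondria and RNA inherited from megakaryocytes. The comparison asked whether transcripts of these cristae-shaping proteins differed between pre-AML and control platelets.

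The values are FPKM, that is, reads divided by gene length in kilobases and by the library size, as scaled by the submitters. Reads recovered from the FPKM steps numbered 11935646 to 13875765 in the control libraries and 13537201 to 17778115 in the pre-AML libraries. The library size behind the FPKM values was 1.31 times the recovered reads in pre-AML 3, against 0.983 to 1.01 times in the other libraries. FPKM values of pre-AML 3 are therefore lower than scaling to recovered reads would give. The 9 platelet markers examined summed to between 85900 and 110400 FPKM in control and between 58120 and 88420 FPKM in pre-AML libraries. Most of that sum was Pf4, at 58030 to 79255 FPKM in control and 38150 to 60066 FPKM in pre-AML libraries. Not all the other markers followed it: Gp9 was at 6358 to 7243 FPKM in control and 6456 to 8727 FPKM in pre-AML libraries. Pre-AML 3 stood apart. Its mean Spearman correlation with the other libraries, across genes, was 0.858, against at least 0.942 for each other library. The 5 B cell markers summed to 226 FPKM in pre-AML 3 and to at most 19.3 FPKM elsewhere, and each of the 7 monocyte and macrophage markers was highest there. Fold changes of the members and of the named related genes are therefore given with and without it.

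Samm50 and Chchd3 were the only members with a control mean of at least 1 FPKM. Samm50 (Entrez gene 68653, chr15:84192241-84217267 on the plus strand of GRCm38) had 17.9, 16.9 and 18.4 FPKM in controls 1 to 3, and 18.4, 21.7 and 17.0 FPKM in the pre-AML libraries, in the order of their numbers as in all that follows. Its control mean of 17.7 ± 0.732 FPKM (SD, n = 3) placed it in the top 7.31% of the listed genes. Chchd3 (Entrez gene 66075, chr6:32790976-33060260, minus strand) encodes the MICOS subunit MIC19, which bridges the MICOS core to SAMM50. It had 11.4, 13.5 and 13.2 FPKM in the controls and 11.6, 10.3 and 7.89 FPKM in the pre-AML libraries. Its control mean was 12.7 ± 1.12 FPKM (SD, n = 3), in the top 8.93%. Samm50 was above Chchd3 in 6 of 6 libraries on this scale, and their control ranges were separate.

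**Figure D1:**
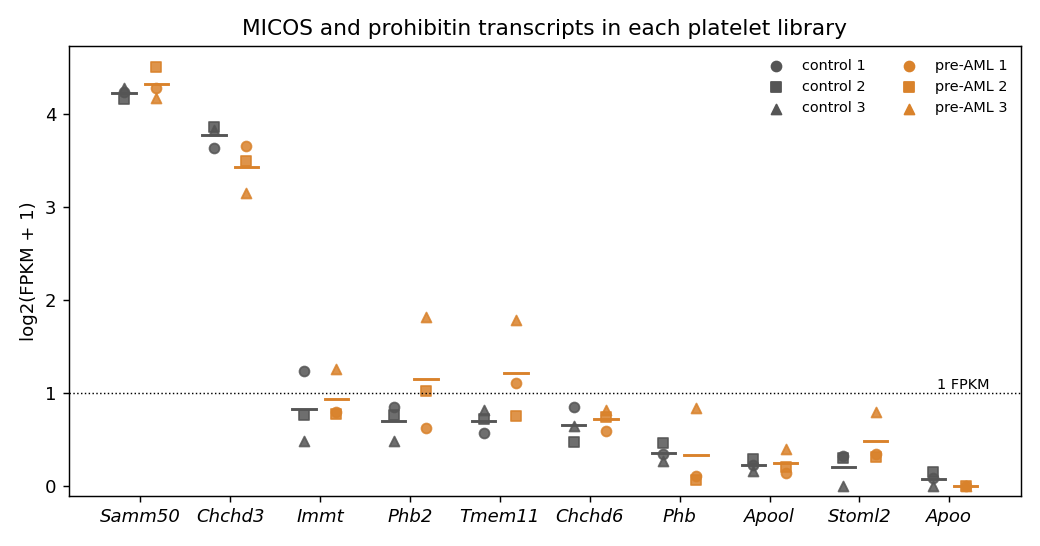
Level of each member as log2(FPKM + 1) in every library, with a horizontal bar for the group mean on that scale and a dotted line at 1 FPKM. Samm50 and Chchd3 stand well above the other 8 members, whose control means are under 1 FPKM, and the pre-AML 3 triangle is the highest point for 6 of those 8.

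The other MICOS subunits among the members were low. Immt (Entrez gene 76614, chr6:71831331-71877388, plus strand) encodes MIC60, the core subunit that bends the membrane at the junction. It had 1.36, 0.698 and 0.405 FPKM in the controls and 0.738, 0.712 and 1.39 FPKM in the pre-AML libraries, so that control 1 and pre-AML 3 were high and the groups overlapped. Chchd6 (Entrez gene 66098, chr6:89383146-89595652, minus strand), which encodes the MIC19 paralog MIC25, had a control mean of 0.589 ± 0.209 FPKM (SD, n = 3). Apool (Entrez gene 68117, chrX:112311334-112372755, plus strand) and Apoo (Entrez gene 68316, chrX:94367117-94417093, plus strand) encode MIC27 and MIC26, apolipoprotein-like subunits of the branch that also holds MIC10. Apool had 0.172 ± 0.0519 FPKM (SD, n = 3) in the controls. Apoo rested on 1 and 2 reads in control 1 and control 2 and 0 reads in the other 4 libraries, where 3 reads, the limit that a count of 0 allows, would be between 0.102 and 0.204 FPKM over the 6 libraries. Such limits cover counting error only.

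MICOS subunits outside the list of members were not low. Micos10, which encodes the small subunit MIC10 that oligomerizes at the crista neck, had 37.3 ± 4.49 FPKM (SD, n = 3) in the controls. Micos13, which encodes the linker between the MIC60 and MIC10 branches, had 16.0 ± 1.65 FPKM (SD, n = 3). Of the partners of Samm50 in the outer membrane, Mtx2 had 1.65 ± 0.231 FPKM and Mtx1 0.284 ± 0.0548 FPKM (SD, n = 3 for each). The levels of transcripts for MICOS and for its outer membrane partners were thus spread over a wide range. Samm50 was at 21.6 times the control mean of Immt, or 7.36 times with the lengths of the principal transcripts described below.

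The prohibitin family was low as a whole. Phb2 (Entrez gene 12034, chr6:124712336-124716950, plus strand) and Phb (Entrez gene 18673, chr11:95666957-95680773, plus strand) encode the 2 subunits that alternate in the prohibitin ring. Phb2 had 0.802, 0.707 and 0.407 FPKM in the controls, and Phb had 0.273, 0.380 and 0.210 FPKM. Their control means were 0.639 ± 0.206 and 0.288 ± 0.0861 FPKM (SD, n = 3 for each), and the ranges did not overlap. Stoml2 (Entrez gene 66592, chr4:43027690-43031710, minus strand), a prohibitin relative that binds cardiolipin, had 0.254 and 0.235 FPKM in control 1 and control 2 and 0 reads in control 3. Tmem11 (Entrez gene 216821, chr11:60864452-60879272, minus strand), a mitochondrial membrane protein known to associate with MICOS, had 0.488, 0.652 and 0.771 FPKM in the controls. By control mean the order ran from Samm50 and Chchd3 through Immt, Phb2, Tmem11 and Chchd6 to Phb, Apool, Stoml2 and Apoo. The neighbours from Immt to Chchd6 overlapped, as did Phb and Apool, Apool and Stoml2, and Stoml2 and Apoo, while the lowest control value of Chchd6, 0.393 FPKM, lay above the highest of Phb.

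The order depended in part on gene length. With the union of all annotated exons as the length, the FPKM of 8 members gave whole reads, while those of Immt and Samm50 did not, so that the length behind these 2 genes is not settled and their reads are estimates. For Immt the union is 11353 bases, whereas its principal transcript has 2728 bases. Recalculated from the union to the principal transcripts, the control mean was 3.41 ± 2.03 for Immt, 1.80 ± 0.582 for Phb2 and 1.33 ± 0.471 for Chchd6 (SD, n = 3 for each). On the same basis Samm50 had 25.1 ± 1.04 and Chchd3 23.8 ± 2.11 (SD, n = 3 for each), and their control values, 24.0 to 26.0 and 21.4 to 25.3, overlapped. The other 8 members stayed below both. This recalculation was chosen after the values were seen. For Immt and Samm50 it assumes the union as the length behind the deposited values.

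Some members share sequence with other genes, so their reads cannot be assigned with certainty. At 95% identity or more over at least 100 bases, transcripts of other genes covered 74.7% of the principal transcript of Apoo, 74.7% of that of Stoml2 and 51.5% of that of Phb. For Apoo this was Apoo-ps, identical over 586 bases, and for Phb it included Gm7666 (99.9% identity over 819 bases) and Fyb, a gene for an adapter protein of platelets and T cells that is identical to Phb over 339 bases. Fyb was at 58.5, 69.8 and 66.2 FPKM in the controls and at 64.3, 63.8 and 46.7 FPKM in the pre-AML libraries, while Gm7666 has no value in the deposited table. For Stoml2 it was Gm5626 (95.2% identity over 1050 bases) and Gm26643, a noncoding gene on the opposite strand that overlaps 502 bases of its exons. No such stretch was found in the principal transcript of Phb2, Chchd3, Chchd6 or Apool, and it covered 2.55% for Samm50, 6.78% for Immt and 10.6% for Tmem11. Over all its annotated exons, however, Phb2 overlaps 155 bases of Gm23547, a small nucleolar RNA gene on the same strand. It also overlaps 141 bases of Gm15884, an antisense gene. The kit does not keep strand. How the counting treated reads with several matches is not given in the sources used here, and the part of these copies and overlaps in the low values was not tested.

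Between pre-AML and control platelets, no member passed the test. The test took in genes that averaged 1 FPKM or more over the 6 libraries, and compared them on log2(FPKM + 1) with limma-trend and Benjamini-Hochberg adjustment over all 4412 genes tested, of which 0.0227% (1 gene) had an adjusted p under 0.05. Of the 10 members 4 passed this filter (Samm50, Chchd3, Phb2 and Tmem11), and 0 of them were called. At an unadjusted p under 0.05 the count was also 0 of 4 with limma-trend, against 9.09% of all genes tested, and 0 of 4 with limma-voom on recovered reads, against 11.3% of all genes in that fit. The groups did not overlap in 0 of the 4 tested members, against 18.9% of the genes tested, and in 0 of all 10 members, against 13.3% of the listed genes. Without pre-AML 3, and with the filter taken over the other 5 libraries, only Samm50 and Chchd3 qualified, and limma-trend called neither, against 0.047% of the genes tested. That fit was added after the values were seen. The scale log2(FPKM + 1) understates the change of low genes.

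Chchd3 had the lowest fold change of the 4. Its mean was 9.93 ± 1.88 FPKM in pre-AML platelets (SD, n = 3), below the control mean given above, with pre-AML 1 inside the control range and pre-AML 2 and pre-AML 3 below it. The log2 fold change was -0.34 (standard error 0.16, 95% interval -0.71 to 0.04, adjusted p = 0.522 from limma-trend), against a median of -0.06 over all genes tested. Without pre-AML 3 it was -0.19 (adjusted p = 0.713 from limma-trend). In bulk RNA such as this, fewer platelets carrying a transcript and less of it per platelet cannot be told apart.

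The groups overlapped for Samm50. Its pre-AML mean was 19.0 ± 2.41 FPKM (SD, n = 3), with pre-AML 2 highest and the other pre-AML libraries within the control range. Its log2 fold change was 0.09 (standard error 0.14, 95% interval -0.23 to 0.41, adjusted p = 0.795 from limma-trend). Without pre-AML 3 it was 0.16 (adjusted p = 0.741 from limma-trend). Without pre-AML 2 it was -0.0018, against a median of -0.08 over all genes in that fit. With each library scaled to its recovered reads it was 0.22 (adjusted p = 0.460 from limma-trend), and pre-AML 2 and pre-AML 3 then lay above every control. This scaling moved the median of all genes by 0.11. Relative to that median, Chchd3 was at -0.28 in the deposited scaling and -0.27 in this one, and Samm50 at 0.15 and 0.17, all on the log2 scale.

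**Figure D2:**
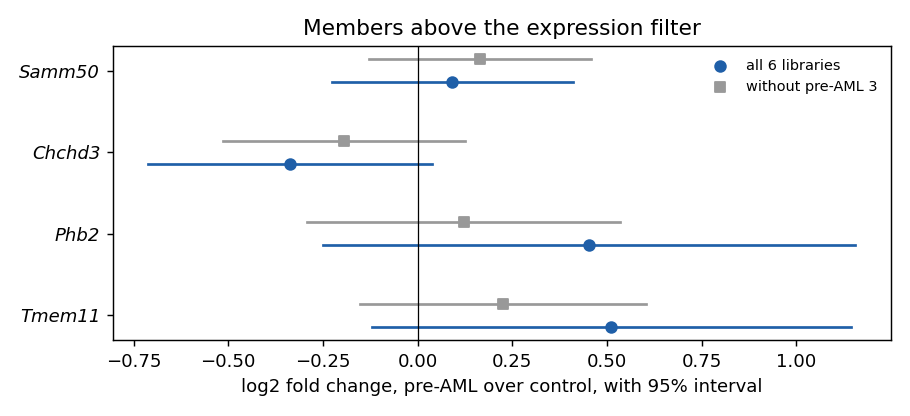
Log2 fold change (pre-AML over control) of the 4 members above the expression filter, with its 95% interval from limma-trend, for all 6 libraries and for the same genes without pre-AML 3. Every interval includes 0, and the estimates for Phb2 and Tmem11 drop from 0.45 and 0.51 to 0.12 and 0.23 without pre-AML 3.

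Phb2 and Tmem11 passed the filter only through pre-AML 3, without which their means were 0.699 and 0.751 FPKM. Phb2 was at 0.546, 1.03 and 2.52 FPKM in the pre-AML libraries. Pre-AML 1 lay within the control range, and pre-AML 3 was 2.44 times the highest other library. The log2 fold change of Phb2 was 0.45 (standard error 0.31, 95% interval -0.25 to 1.16, adjusted p = 0.573 from limma-trend) and 0.12 without pre-AML 3. Tmem11 had 1.16, 0.684 and 2.46 FPKM in the pre-AML libraries, with pre-AML 2 inside the control range. Its log2 fold change was 0.51 (standard error 0.28, 95% interval -0.12 to 1.14, adjusted p = 0.526 from limma-trend) and 0.23 without pre-AML 3.

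Phb, the partner of Phb2 in the ring, was lower than every control in 2 pre-AML libraries and higher than every control in the third. The pre-AML values were 0.0804, 0.0473 and 0.795 FPKM, which rest on 3, 2 and 52 reads, against 9, 15 and 7 reads in the controls. Stoml2 had 11, 11 and 52 reads in the pre-AML libraries and 9, 10 and 0 in the controls. Apool had 5, 8 and 26 reads against 7, 11 and 5, and Chchd6 had 17, 26 and 45 against 24, 14 and 17. In each of these 4 genes pre-AML 3 had the most reads, and it was also the most deeply sequenced library. The 6 members under the filter were tested only in the fit without a filter. There their adjusted p was between 0.705 (Stoml2 and Apoo) and 0.975 (Phb) with limma-trend, and that of Immt was 0.869 with a log2 fold change of 0.11.

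**Figure D3:**
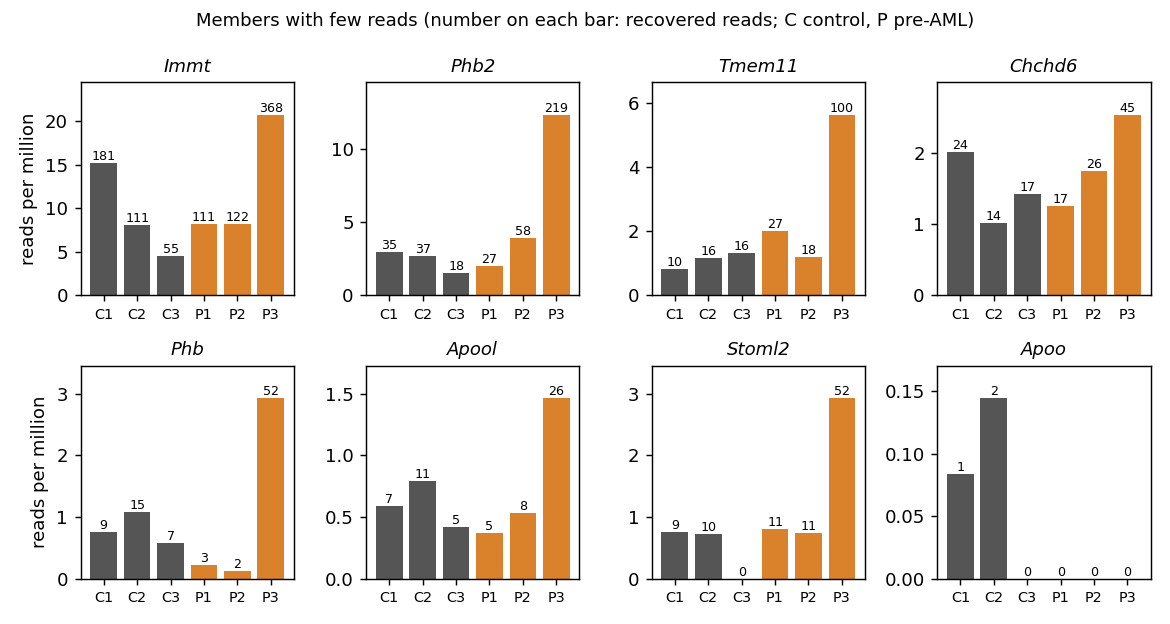
Recovered reads scaled to 1000000 per library (RPM, bar height, each panel with its own axis from 0) and recovered reads (number above each bar) of the 8 members with a control mean under 1 FPKM, in control (C1 to C3) and pre-AML (P1 to P3) libraries. P3 is the tallest bar in 7 of the 8 panels, and the numbers for Immt are estimates that do not come out whole.

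In RPM, that is, recovered reads scaled to 1000000 per library, pre-AML 3 was the highest library for 7 of the 8 low members. The same held for 52.5% of the 10514 genes with recovered reads under 1 FPKM on average. In FPKM it was highest for 6 of the 8, against 43.2% of such genes. The 8 members were taken by control mean, but these genes by the mean over all 6 libraries. Phb2 and Tmem11, at 1.003 and 1.036 FPKM on that mean, are thus not among them. The sets are therefore unlike, and the shares cannot be compared directly. Phb2 was at 12.3 RPM in pre-AML 3 and at most 3.89 RPM in the other 5 libraries, and Stoml2 was at 2.92 RPM and at most 0.813 RPM.

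Markers of some leukocyte types, not all, were also highest in pre-AML 3. The 5 B cell markers were all highest in pre-AML 3, and their sum was between 1.38 and 1.86 FPKM in the controls, and in the pre-AML libraries between 0.881 and 226 FPKM. The 7 monocyte and macrophage markers summed to between 2385 and 2615 FPKM in the controls, and in the pre-AML libraries between 2339 and 3292 FPKM, most of it Lyz2. Of these, Cd14 was at 0 in all controls and at 11.7 FPKM in pre-AML 3, where Tyrobp was at 153 FPKM. Of the 5 T and NK cell markers 3 were highest in pre-AML 3. The 5 summed to between 19.1 and 28.9 FPKM in the controls, and to between 32.8 and 33.4 FPKM in the pre-AML libraries. Most of it was Nkg7, whose groups overlapped (18.9 to 28.2 FPKM in the controls, 22.6 to 27.9 FPKM in the pre-AML libraries). Gzma was at most 0.353 FPKM in the controls and between 4.61 and 8.90 FPKM in the pre-AML libraries. Cd3e, Cd3d and Klrd1 stayed under 1 FPKM in every library. Of the 6 neutrophil markers 0 were highest in pre-AML 3, and Elane, Mpo and Ly6g were at 0 in all controls. The neutrophil sums were between 1.89 and 2.42 FPKM in the controls, and between 0.604 (pre-AML 3) and 3.58 FPKM (pre-AML 1) in the pre-AML libraries. Ptprc, which encodes CD45 and marks the cells that were depleted from the platelets, was at 1.57 FPKM in pre-AML 3 and at most 0.179 FPKM elsewhere. The 4 listed erythroid markers summed to between 2350 and 2652 FPKM in the controls, and in the pre-AML libraries between 2377 and 2991 FPKM. The part of these transcripts in the values of Phb2, Phb, Stoml2 and Tmem11 in pre-AML 3 was not tested.

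Genes that work beside MICOS and the prohibitins were described from 6 lists of 49 genes, of which 48 were listed and 27 passed the filter. None was called by limma-trend or by limma-voom (0 of 27 by each), and at an unadjusted p under 0.05 there were 0 higher and 3 lower with limma-trend, against 2.56% higher and 6.53% lower over all genes tested, and 0 higher and 2 lower with limma-voom, against 5.23% and 6.07%. Over the 27 genes the median log2 fold change was -0.14, with 20 below 0, against a median of -0.06 over all genes tested, of which 41.5% were above 0. Without pre-AML 3 the median of the 27 was -0.04, with 17 below 0, against -0.02 over all genes tested.

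**Figure D4:**
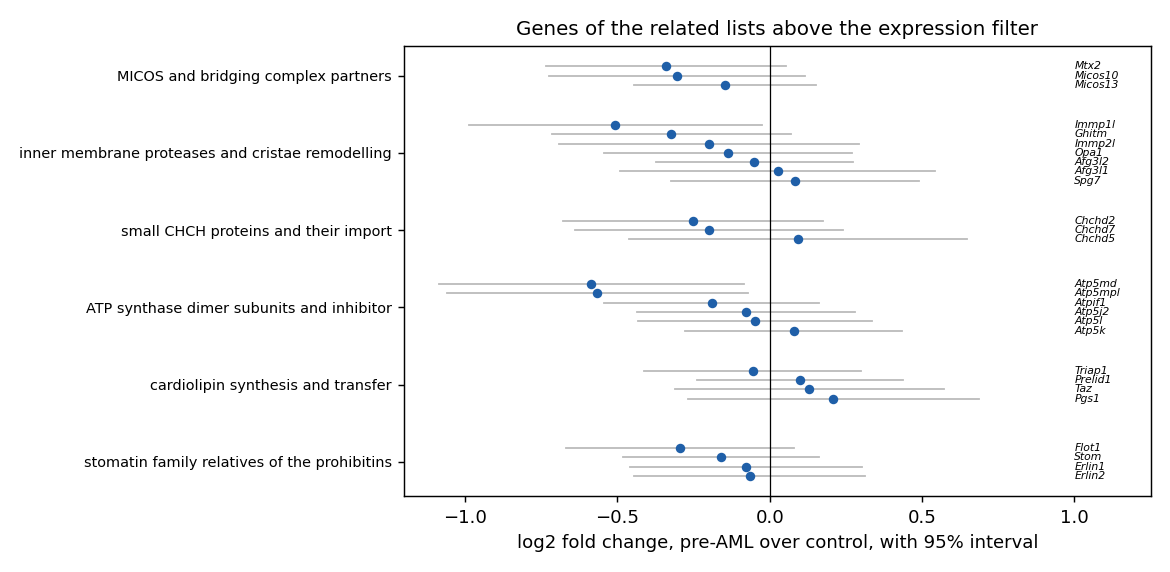
Log2 fold change (pre-AML over control) with its 95% interval from limma-trend for the 27 tested genes of the 6 related lists, gene names at the right in the order of the points. The intervals of Immp1l, Atp5md and Atp5mpl lie below 0 before adjustment for multiple tests, and none of the 27 has an adjusted p under 0.05.

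Among the MICOS and bridging complex partners, 3 of 7 were tested and 3 were below 0. Micos10 had 42.1, 36.4 and 33.2 FPKM in the controls and 36.2, 31.2 and 23.4 FPKM in the pre-AML libraries, with a log2 fold change at -0.31 (limma-trend, adjusted p = 0.546) and at -0.14 without pre-AML 3. Mtx2 had 1.41, 1.88 and 1.65 FPKM in the controls and 0.961, 1.01 and 1.29 FPKM in the pre-AML libraries. Its groups did not overlap, nor did those of Micos13, against 18.9% of all genes tested without overlap. The log2 fold change of Mtx2 was -0.34 (limma-trend, adjusted p = 0.522) and -0.41 without pre-AML 3. With trends of gene length and GC content removed it was -0.15 (limma-trend, adjusted p = 0.852).

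In the list of ATP synthase dimer subunits and inhibitor, 6 of 6 were tested. These subunits hold the enzyme in the paired rows that bend the crista edge. Atp5md had 103.4, 78.6 and 72.8 FPKM in the controls and 64.7, 65.2 and 40.8 FPKM in the pre-AML libraries. Atp5mpl had 107.5, 70.7 and 68.9 FPKM against 60.4, 61.1 and 43.0 FPKM. In both, every pre-AML library lay below every control, as was also so for Mtx2, Micos13 and Ghitm of the other lists. Of all genes tested, 18.9% had groups that did not overlap, in either direction. The log2 fold changes of Atp5md and Atp5mpl were -0.59 and -0.57 (adjusted p = 0.522 for each from limma-trend). Without pre-AML 3 they were -0.37 and -0.40 (adjusted p = 0.576 and 0.589 from limma-trend). Atp5k was at 0.08 with and without pre-AML 3, and Atp5l at -0.05 and at 0.10 without it. The most abundant gene of all 6 lists was Atpif1, the inhibitor of ATP hydrolysis, at 861 ± 54.7 FPKM in control platelets and at 759.8 ± 123 FPKM in pre-AML platelets (SD, n = 3).

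Of the 12 genes for inner membrane proteases and cristae remodelling, 7 were tested, 2 above and 5 below 0. Immp1l, a catalytic subunit of the inner membrane signal peptidase, was at -0.51 on the log2 scale (95% interval -0.99 to -0.03, limma-trend, adjusted p = 0.522), and Ghitm, an inner membrane protein whose loss disturbs cristae, was at -0.32 (adjusted p = 0.526). Without pre-AML 3 they were at -0.32 and -0.16, and with trends of gene length and GC content removed at -0.19 and -0.09. Opa1, the GTPase that tightens crista junctions, was at 1.90 ± 0.266 FPKM in control platelets and at 1.65 ± 0.386 FPKM in pre-AML platelets (SD, n = 3), and its processing protease Oma1 was below the filter.

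Among the 8 small CHCH proteins and import factors, 3 were tested, with Chchd2 at -0.25 and Chchd7 at -0.20 on the log2 scale, and at -0.04 and -0.03 without pre-AML 3. The sign of Chchd7 turned with trends of gene length and GC content removed. Of 9 genes for cardiolipin synthesis and transfer 4 were tested, with 3 above 0 and Pgs1 and Prelid1 at 0.21 and 0.10, or 0.09 and 0.08 without pre-AML 3. The sign of Pgs1 turned with array weights and that of Prelid1 with the length and GC trends removed. Among 7 relatives of the prohibitins in the stomatin family, 4 were tested and 4 were below 0. Stom, which encodes the plasma membrane protein stomatin, had 137 ± 11.5 FPKM in control platelets (SD, n = 3). Its log2 fold change of -0.16 was -0.07 without pre-AML 3 and 0.01 with equal sums of FPKM. Flot1, for the membrane scaffold flotillin, was at -0.30 with and without pre-AML 3. Adjusted p-values for these genes were at least 0.529 with limma-trend.

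The genes with the pattern most like that of Immt were Slpi, Rrp1 and Etfa. Likeness was the root mean square difference of log2(FPKM + 1) values, each centred on its own mean over the 6 libraries, and it was 0.08, 0.08 and 0.09, against 0.27 for the deviations of Immt itself. Like Immt, all 3 had their highest values in control 1 and pre-AML 3, which follows from their choice by likeness over these same libraries. Etfa, which encodes a subunit of the mitochondrial electron transfer flavoprotein, had 2.74, 1.51 and 0.870 FPKM in the controls and 1.39, 1.63 and 2.57 FPKM in the pre-AML libraries.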

How the data were processed

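The authors mapped reads to mm10 with STAR, compared groups with DESeq2 and deposited FPKM values, 1 per gene and library, with Entrez identifiers and symbols. The counting program and annotation are not given in the sources used here. Platelet RNA had been amplified with SMART-Seq2 after depletion of CD45 and Ter119 positive cells. Reads were recovered as FPKM × union exon length (GENCODE M21, GRCm38, 14911 genes matched) × library size, and 86.3% of values were whole within 0.05. Genes averaging 1 FPKM or more were tested as log2(FPKM + 1) by group alone, with limma-trend (limma version 3.58.1 under R 4.3.3) and an adjusted p threshold of 0.05. The test was checked on simulated data. Copies were searched with blastn 2.17.0.

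The members and lists were chosen with earlier results of these data known. Named were all members, from each list up to 2 genes with the smallest p, and the 3 genes most like Immt. Micos13, Mtx1, Opa1, Oma1, Atp5k, Atp5l and Atpif1 were named after their values were seen. Alternatives were a pseudocount of 0.1, no filter, a replicate block, leaving out each library, 3 other scalings, limma-voom, array weights, removal of length and GC trends, and, added after the values were seen, principal transcript lengths, RPM and a filter taken without pre-AML 3. Protein and promoter sequences were not used here.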

Additional observations from a re-analysis of the deposited data

How the results depend on the processing

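No member and no gene of the related lists passed the threshold under any of the 15 alternatives of the gene test. Over them the adjusted p was between 0.267 and 0.996 for the 4 tested members, and 59 of their 60 fold changes kept their sign, the exception being Samm50, at -0.0018 without pre-AML 2 and up to 0.16 (without pre-AML 3) with 1 library left out. Phb2 ranged from 0.12 (without pre-AML 3) to 1.09 (limma-voom) and Tmem11 from 0.14 (array weights) to 1.17 (limma-voom). Of 180 fold changes of the 12 named genes of the related lists, 4 turned: Chchd7 to 0.046 and Prelid1 to -0.063 with length and GC trends removed, Pgs1 to -0.075 with array weights, and Stom to 0.011 with equal sums of FPKM. The array weights stopped before reaching their tolerance, with weights of 0.208 for pre-AML 3 and 4.35 for pre-AML 2.

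Over all genes, the 1 called gene became 0 without a filter, with equal sums of FPKM, with scaling to recovered reads and with limma-voom, and 2 with array weights. With 1 library left out the count was 0 (without control 1 or control 3) to 2 (without pre-AML 3, also with the filter taken over the other 5 libraries, a fit added after the values were seen). Of the 4 tested members, the groups did not overlap in 1 (Samm50) with quantile normalization, against 19.2% of all genes, and in 0 to 2 with 1 library left out, against 27.1% to 33.4% of all genes (Chchd3 without control 1, Tmem11 without control 3 or pre-AML 2, Chchd3 and Phb2 without pre-AML 1). The cause was not tested. The median of all genes moved by 0.14 with equal sums of FPKM and by 0.13 with limma-voom.

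The correlations of same-numbered deviations from the group means across genes were -0.04, -0.12 and -0.17. For each control, the correlations with pre-AML 1 and pre-AML 2 shared a sign, opposite to that with pre-AML 3. Because pre-AML 3 stands apart and shapes these deviations, they cannot settle whether replicate numbers pair the libraries. With the replicate block 1 gene was called, and 0 members and 0 genes of the related lists. The 6 members under the filter rest on 0 to 368 reads per library.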
